A study of Homo sapiens with 6 samples.

Results

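A set of 10 inflammatory genes was followed in LoVo cells carrying hairpins against LGR5: the chemokine genes CXCL1, CXCL2, CXCL3, CXCL5, CXCL8 and CCL20, the cytokine genes IL32 and TNF, the acute-phase gene SAA1, and NFKBIA, the gene of an NF-kappaB inhibitor. They were chosen by name, with earlier results of these data known, under current symbols or aliases such as IL8 for CXCL8. Every probe annotated to them was taken. They are 10 of the 20039 genes annotated on the array. Their 15 probes are 15 of 47323, and 14 of these exceeded a noise threshold on both arrays of at least 1 group, so that all 10 genes were among the 12111 tested. LoVo is an established human colorectal adenocarcinoma cell line, and LGR5, a receptor for R-spondins, marks intestinal stem cells. Total RNA was measured on Illumina bead arrays, 6 arrays in all. The groups were shLGR5-1 and shLGR5-2, stable lines each made by lentiviral delivery of a different hairpin against LGR5, and shCTL, a stable line with the pLKO.1 vector as non-targeting control. All lines were grown in RPMI medium with 10% fetal bovine serum and puromycin, without a stated inflammatory stimulus. Each group is 1 stable line with 2 replicates, and nothing in the labels says that these came from separate cultures. The spread behind each p-value is therefore that between these samples and may be technical, and a hairpin's effect and the individual history of its line cannot be told apart.

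NF-kappaB is a family of dimeric transcription factors built from RELA, RELB, REL and the products of NFKB1 and NFKB2. Inhibitors such as IkappaB-alpha, the product of NFKBIA, hold the dimers in the cytoplasm until a kinase complex marks the inhibitor for destruction. The freed dimers switch on chemokine and cytokine genes, and also NFKBIA itself, which closes a negative feedback loop. In the gut epithelium the CXC chemokines of this set attract neutrophils through CXCR2, and CCL20 attracts dendritic cells and lymphocytes that carry CCR6.

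The promoter starts are printed because the 5 CXC genes lie in 1 gene cluster and hold like motifs, yet were called in different directions. The lines give the 120 bases just upstream of the RefSeq gene start, 5′ to 3′ on the gene's own strand (RefSeq, GRCh38.p14), with matches to the motif described after them in capitals. The windows are chr4:73869273-73869392 (plus strand) for CXCL1, chr4:74099196-74099315 (minus strand) for CXCL2, chr4:74038690-74038809 (minus strand) for CXCL3, chr4:73998678-73998797 (minus strand) for CXCL5. The others are chr4:73740449-73740568 (plus strand) for CXCL8, chr2:227813722-227813841 (plus strand) for CCL20, chr16:3065283-3065402 (plus strand) for IL32 and chr14:35404750-35404869 (minus strand) for NFKBIA.
CXCL1: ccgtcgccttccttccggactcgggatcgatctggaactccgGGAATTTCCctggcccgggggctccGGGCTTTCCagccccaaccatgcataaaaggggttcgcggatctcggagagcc
CXCL2: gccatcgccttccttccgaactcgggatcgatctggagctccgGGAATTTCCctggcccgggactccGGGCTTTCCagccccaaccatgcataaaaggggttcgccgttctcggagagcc
CXCL3: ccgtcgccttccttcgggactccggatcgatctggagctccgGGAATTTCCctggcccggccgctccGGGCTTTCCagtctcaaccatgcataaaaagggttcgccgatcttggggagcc
CXCL5: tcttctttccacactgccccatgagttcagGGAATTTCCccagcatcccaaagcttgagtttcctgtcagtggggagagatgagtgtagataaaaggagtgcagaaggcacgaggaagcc
CXCL8: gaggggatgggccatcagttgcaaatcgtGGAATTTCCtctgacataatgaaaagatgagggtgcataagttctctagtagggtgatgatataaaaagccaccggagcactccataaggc
CCL20: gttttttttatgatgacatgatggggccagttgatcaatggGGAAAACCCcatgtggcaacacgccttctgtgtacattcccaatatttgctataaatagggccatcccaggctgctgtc
IL32: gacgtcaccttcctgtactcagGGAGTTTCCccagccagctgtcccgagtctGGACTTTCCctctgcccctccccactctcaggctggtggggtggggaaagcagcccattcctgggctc
NFKBIA: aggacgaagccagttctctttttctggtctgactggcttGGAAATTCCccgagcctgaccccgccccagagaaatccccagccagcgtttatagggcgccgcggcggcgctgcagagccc

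The motifs searched were GGNNTTTCC and GGAATTTCC, which is 1 form of it, on both strands of the 250 bases upstream of each start. Of 35116 promoters of that length, 1926 (5.48%) held the open form and 145 (0.41%) the fixed form. The fixed form was found at positions -78 to -70, counted from the gene start, in CXCL1 and CXCL3, at -77 to -69 in CXCL2, at -90 to -82 in CXCL5 and at -91 to -83 in CXCL8. It was also found in NFKBIA at -81 to -73 on the opposite strand, so that its line shows the reverse complement. CXCL1, CXCL2 and CXCL3 each held a further match to the open form, GGGCTTTCC, at -53 to -45. CCL20 held GGGTTTTCC at -79 to -71 on the opposite strand, and IL32 held GGAGTTTCC at -98 to -90 and GGACTTTCC at -68 to -60 of the first of its 2 listed starts, with no match at the other. NFKBIA had another match to the open form at -242 to -234, outside the printed stretch. TNF held neither form, which says only that these letters are not in that window. Entries were found for 9 of the 10 genes, the other being SAA1. The 120-base windows of CXCL1 and CXCL2 were 93.4% identical, those of CXCL1 and CXCL3 90.8% and those of CXCL2 and CXCL3 88.4%. CXCL1 shared 54.8% with CXCL5 and 46.7% with CXCL8. A match describes the letters and was not tested as a binding site.

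Levels are intensities as normalized by the authors. Each fold change was computed on log2(intensity + 16) and is given with its standard error (SE) from a limma fit over all 6 arrays. A gene was called changed at a Benjamini-Hochberg adjusted p below 0.05 over 12111 genes. Between 20641 and 20705 probes per array exceeded the noise threshold of 16.5, and replicate arrays of a group correlated at 0.974 to 0.991 over tested genes. LGR5, the hairpins' target, was dim: its probe read -1.1 and 7 in shLGR5-1 and 12.5 and 19.2 in shLGR5-2, against 44.4 and 49.2 in shCTL. Its fitted log2 fold change, which the offset of 16 understates at this level, was -1.71 in shLGR5-1 (adjusted p = 0.00167), where neither array was above the threshold, and -0.99 in shLGR5-2 (adjusted p = 0.0196), where 1 of 2 was. LGR5 passed the filter through shCTL alone, and a gene that passes through 1 group alone can hardly be called other than highest there. All 10 epithelial markers were tested and 8 were above the threshold on every array, while none of the 6 endothelial and 2 of the 8 fibroblast markers passed the filter. Of 9 leukocyte markers on the array, CD68, CD14 and LCP1 passed. The brightest probe of PTPRC, the common leukocyte antigen, exceeded the threshold on 1 of the 6 arrays (48.9, against at most 7.6 on the other 5). The brightest probes of CD3D, MS4A1 and ITGAM also exceeded it, with highest readings of 27.1, 27.8 and 17.1. Those of CD3E and NKG7 exceeded it on no array. In such bulk RNA, fewer cells making a transcript and less RNA per cell cannot be told apart.

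All 10 genes differed from control in the shLGR5-2 line and 8 of them did in the shLGR5-1 line, but in different directions for some. In shLGR5-2, CXCL1, CXCL2, CXCL3, CXCL8, CCL20, IL32, TNF and NFKBIA fell and CXCL5 and SAA1 rose, all by at least 2-fold. In shLGR5-1, CXCL8, CCL20, CXCL2 and CXCL3 fell, CXCL5, SAA1, IL32 and TNF rose, and CXCL1 and NFKBIA were not called. So IL32 and TNF rose with one hairpin and fell with the other. The rise of TNF was no longer called with the genomic span trend, described further on, removed (0.20, adjusted p = 0.29). The 8 of 10 called in shLGR5-1 stand against 72% of all tested genes, the 4 called higher against 40.4%, the 4 called lower against 31.6% and the 6 called with at least 2-fold against 49.7%; these shares are near that background. The 10 of 10 called in shLGR5-2 stand against 44.2% of tested genes, the 2 called higher against 21.6%, the 8 called lower against 22.6% and the 10 with at least 2-fold against 24.1%. The 10 genes were chosen with earlier results of these data known. An excess over all tested genes, in these shares or in the medians below, is therefore no independent result. The median log2 fold change of the 10 genes was -0.37 in shLGR5-1, where the median of all tested genes was 0.28, and -1.01 with the genomic span trend described further on removed. In shLGR5-2 it was -3.17, or -3.09 with CXCL3 and TNF at their bounds, where the median of all tested genes was 0. CXCL3 passed the filter through shCTL alone and SAA1 through the hairpin lines alone, so the filter favoured the direction of their calls. TNF passed through shLGR5-1 and shCTL alone, so the filter also favoured its lower call in shLGR5-2. Without CXCL3 and SAA1, 6 of 8 were called in shLGR5-1 (3 higher, 3 lower) and 8 of 8 in shLGR5-2 (1 higher, 7 lower). TNF is still among these 8. Without shCTL replicate 1, the calls among the 10 in shLGR5-1 were 4 higher and 2 lower. Both comparisons share the shCTL arrays.

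**Figure D1:**
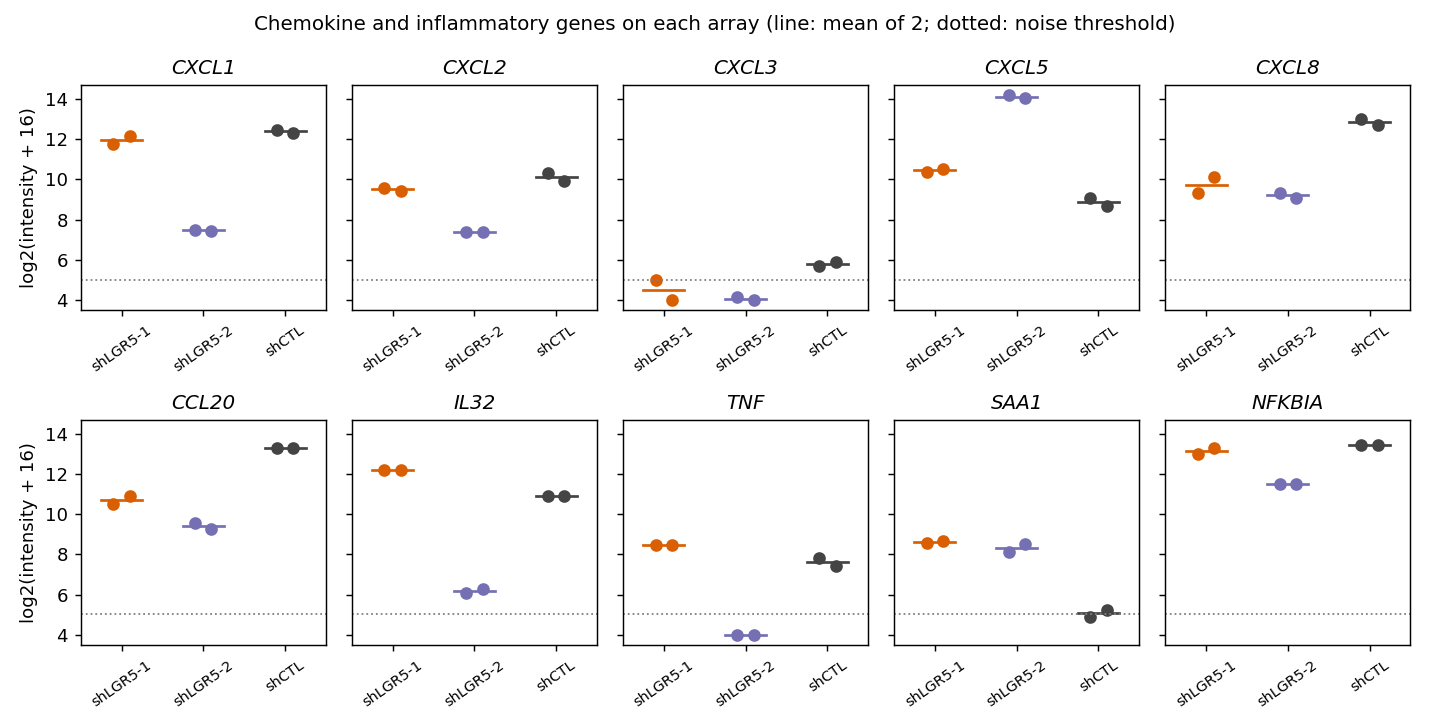
Each panel plots 1 gene, with log2(intensity + 16) of its brightest probe on the vertical axis and the groups shLGR5-1, shLGR5-2 and shCTL along the horizontal axis; points are single arrays, lines are means of 2 and the dotted line is the noise threshold of 16.5. CXCL8 and CCL20 lie below shCTL in both hairpin lines, SAA1 and CXCL5 above it, and IL32 and TNF above it in shLGR5-1 and below it in shLGR5-2.

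CXCL8, which encodes interleukin-8, the best known neutrophil attractant, fell with both hairpins. Its brighter probe read 635.9 and 1083.8 in shLGR5-1 and 629.2 and 530.4 in shLGR5-2, against 8033.8 and 6711.1 in shCTL. Every knockdown array was below both control arrays, and the higher shLGR5-2 array lay just under the lower shLGR5-1 array. The fall was 8.69-fold in shLGR5-1 (log2 fold change -3.12 ± 0.28 SE, adjusted p = 5.96e-04) and 12.4-fold in shLGR5-2 (-3.63 ± 0.28, adjusted p = 8.17e-04). A second probe of the gene, at 322.6 and 602 in shLGR5-1 and 323.4 and 293.2 in shLGR5-2 against 3502.1 and 2962.3 in shCTL, gave log2 fold changes of -2.82 and -3.32. Between shLGR5-2 and shLGR5-1 the log2 difference was -0.51, with a 95% interval of -1.24 to 0.21, and was not called (adjusted p = 0.158). Without shLGR5-1 replicate 1 that difference was -0.89 and was called (adjusted p = 0.0156).

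CCL20, the ligand of CCR6, also fell with both hairpins, and further in shLGR5-2. Its probe read 1420.7 and 1888.6 in shLGR5-1 and 741.9 and 591.3 in shLGR5-2, against 10041.3 and 9818.6 in shCTL. The groups did not overlap, and shLGR5-2 was lowest. The fall was 6.01-fold in shLGR5-1 (-2.59 ± 0.19, adjusted p = 3.74e-04) and 14.7-fold in shLGR5-2 (-3.87 ± 0.19, adjusted p = 2.39e-04). The direct contrast, shLGR5-2 against shLGR5-1, was 2.44-fold lower (-1.29 ± 0.19, adjusted p = 0.00265).

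CXCL1 and CXCL2, which encode closely related neutrophil attractants, were lowest in the shLGR5-2 line. Whether a probe of CXCL1, CXCL2 or CXCL3 also binds transcripts of the other 2 paralogs was not analysed here, so each level is that of the annotated probe. CXCL1 read 3385.6 and 4530.2 in shLGR5-1 and 163.5 and 159.1 in shLGR5-2, against 5567.4 and 5097.7 in shCTL. It was 30.1-fold lower in shLGR5-2 than in shCTL (-4.91 ± 0.17, adjusted p = 9.48e-05) and ranked 76 from the lowest of the 12111 genes. In shLGR5-1 both arrays were below both controls, but the difference of -0.44 ± 0.17 was not called (95% interval -0.89 to 0.00, adjusted p = 0.0675). Without shLGR5-1 replicate 2 it was -0.65 and called (adjusted p = 0.017). CXCL1 was 22.2-fold lower in shLGR5-2 than in shLGR5-1 (-4.47 ± 0.17, adjusted p = 6.40e-05). CXCL2 read 746 and 682.1 in shLGR5-1 and 152.7 and 152.4 in shLGR5-2, against 1243.7 and 968.5 in shCTL, and the groups did not overlap. It fell 6.61-fold in shLGR5-2 (-2.72 ± 0.16, adjusted p = 3.59e-04) and 1.53-fold in shLGR5-1 (-0.61 ± 0.16, adjusted p = 0.0184). The shLGR5-1 call for CXCL2 was lost without shCTL replicate 1 (adjusted p = 0.0659) or shLGR5-1 replicate 2 (adjusted p = 0.0658). The direct contrast of the hairpin lines was 4.33-fold lower in shLGR5-2 for CXCL2 (-2.11 ± 0.16, adjusted p = 2.80e-04).

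CXCL3, which encodes a further neutrophil attractant, was dim in every group. Its probe read 16.2 and -6.3 in shLGR5-1 and 1.7 and -2.1 in shLGR5-2, against 35.2 and 43.2 in shCTL, so that only the control arrays exceeded the threshold. Since it passed the filter through shCTL alone, a lower level in both hairpin lines was in effect the only call open to it. It was at least 2.37-fold lower in shLGR5-1 (adjusted p = 0.0214) and at least 2.37-fold lower in shLGR5-2 (adjusted p = 0.0144). Leaving out either shCTL array raised the adjusted p to 0.0777 and 0.11 for shLGR5-1 and to 0.0719 and 0.0907 for shLGR5-2. Leaving out either shLGR5-2 array also ended both calls.

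CXCL5, whose product also attracts neutrophils through CXCR2, went the other way and rose with both hairpins. Its brighter probe read 1304 and 1456.8 in shLGR5-1 and 18550.8 and 16707.5 in shLGR5-2, against 526.6 and 397.1 in shCTL. The groups did not overlap on this probe. The rise was 2.95-fold in shLGR5-1 (1.56 ± 0.18, adjusted p = 0.0011) and 37.2-fold in shLGR5-2 (5.22 ± 0.18, adjusted p = 8.49e-05), which ranked 13 from the highest of all tested genes. Its second probe read 431.9 and 482.9 in shLGR5-1 and 11318.2 and 14032.8 in shLGR5-2, against 105.7 and 110.7 in shCTL, for log2 fold changes of 1.93 and 6.67. CXCL5 was 12.6-fold higher in shLGR5-2 than in shLGR5-1 (3.66 ± 0.18, adjusted p = 9.57e-05).

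IL32 encodes a cytokine that induces TNF and other cytokines in myeloid cells, and its hairpin lines lay on opposite sides of control. The brighter probe read 4582.2 and 4717.2 in shLGR5-1 and 52.3 and 63 in shLGR5-2, against 1919.5 and 1878.5 in shCTL. It rose 2.44-fold in shLGR5-1 (1.28 ± 0.12, adjusted p = 6.97e-04) and fell 26.1-fold in shLGR5-2 (-4.70 ± 0.12, adjusted p = 4.78e-05). Its second probe, at 1528.8 and 1245.1 in shLGR5-1 and 23 and -2.3 in shLGR5-2 against 487.2 and 575.3 in shCTL, gave 1.36 and -4.45. The direct contrast was 63.5-fold lower in shLGR5-2 (-5.99 ± 0.12, adjusted p = 3.40e-05) and ranked 33 from the lowest of all tested genes.

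TNF, the gene of the cytokine that is both a product and an activator of NF-kappaB signalling, had the same order of groups as IL32. Its probe read 334.2 and 337.5 in shLGR5-1 and -12.8 and -4.2 in shLGR5-2, against 207.3 and 157.3 in shCTL. It rose 1.79-fold in shLGR5-1 (0.84 ± 0.15, adjusted p = 0.0057), a call lost with the span trend removed. In shLGR5-2 it was not above the threshold on either array and was at least 11-fold lower than in shCTL (adjusted p = 1.54e-04) and at least 20.4-fold lower than in shLGR5-1 (adjusted p = 5.66e-05). TNF passed the filter through shLGR5-1 and shCTL alone, which favoured these lower calls.

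SAA1, which encodes the acute-phase apolipoprotein serum amyloid A, rose with both hairpins and was not called different between them. Its brightest probe read 369.6 and 383.4 in shLGR5-1 and 263.9 and 347.7 in shLGR5-2, against 13.8 and 21.9 in shCTL, where 1 of 2 arrays was above the threshold. The rise was 11.7-fold in shLGR5-1 (3.55 ± 0.19, adjusted p = 1.95e-04) and 9.49-fold in shLGR5-2 (3.25 ± 0.19, adjusted p = 3.80e-04) with the offset of 16. With the control readings this close to the threshold, the size depends on the processing: over 15 alternatives the log2 fold change ranged between 2.24 and 4.44 in shLGR5-1 and between 2.11 and 4.12 in shLGR5-2, and was called in each. The hairpin lines differed by -0.30 (95% interval -0.79 to 0.20, adjusted p = 0.214). The probes of the gene disagreed in size. A dimmer probe read 16.9 and 43 in shLGR5-1 and 18.5 and 42.9 in shLGR5-2, against 3.6 and 11.2 in shCTL, with log2 fold changes of 0.93 and 0.97 that were not called (adjusted p = 0.0909 and 0.116), and the last probe did not pass the filter. SAA2 is a near-identical paralog whose transcripts a SAA1 probe could also bind, so the identity of the SAA1 signal is uncertain. The probe annotated to SAA2 read 23.5 and 30.9 in shLGR5-1, -4.8 and 9.8 in shLGR5-2, and -2.3 and -7.4 in shCTL.

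NFKBIA, the feedback inhibitor, fell in shLGR5-2. Its probe read 8193.4 and 9877.9 in shLGR5-1 and 2842.3 and 2831.8 in shLGR5-2, against 11201.4 and 10900.7 in shCTL. The shLGR5-2 arrays were far below the other 4, and the fall was 3.88-fold (-1.96 ± 0.13, adjusted p = 5.74e-04). In shLGR5-1 both arrays were below both controls, but the difference of -0.30 ± 0.13 was not called (95% interval -0.64 to 0.05, adjusted p = 0.10). Without shLGR5-1 replicate 2 it was -0.43 and called (adjusted p = 0.0477). The direct contrast was 3.16-fold lower in shLGR5-2 (-1.66 ± 0.13, adjusted p = 3.55e-04).

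Set against each other, the hairpin lines differed for 7 of the 10 genes. CXCL1, CXCL2, CCL20, IL32, TNF and NFKBIA were lower in shLGR5-2 than in shLGR5-1 and CXCL5 was higher, while CXCL3, CXCL8 and SAA1 were not called. All 7 differences were at least 2-fold. The 7 called stand against 73.4% of all tested genes, the 1 higher against 33.6%, the 6 lower against 39.8% and the 7 with at least 2-fold against 52.5%. The median log2 difference of the 10 genes was -1.47, against -0.19 for all tested genes. It was -0.71 for the 1620 tested genes with a genomic span under 5000 bases, to which the 10 belong. The share of the 10 genes called is near that of all tested genes.

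**Figure D2:**
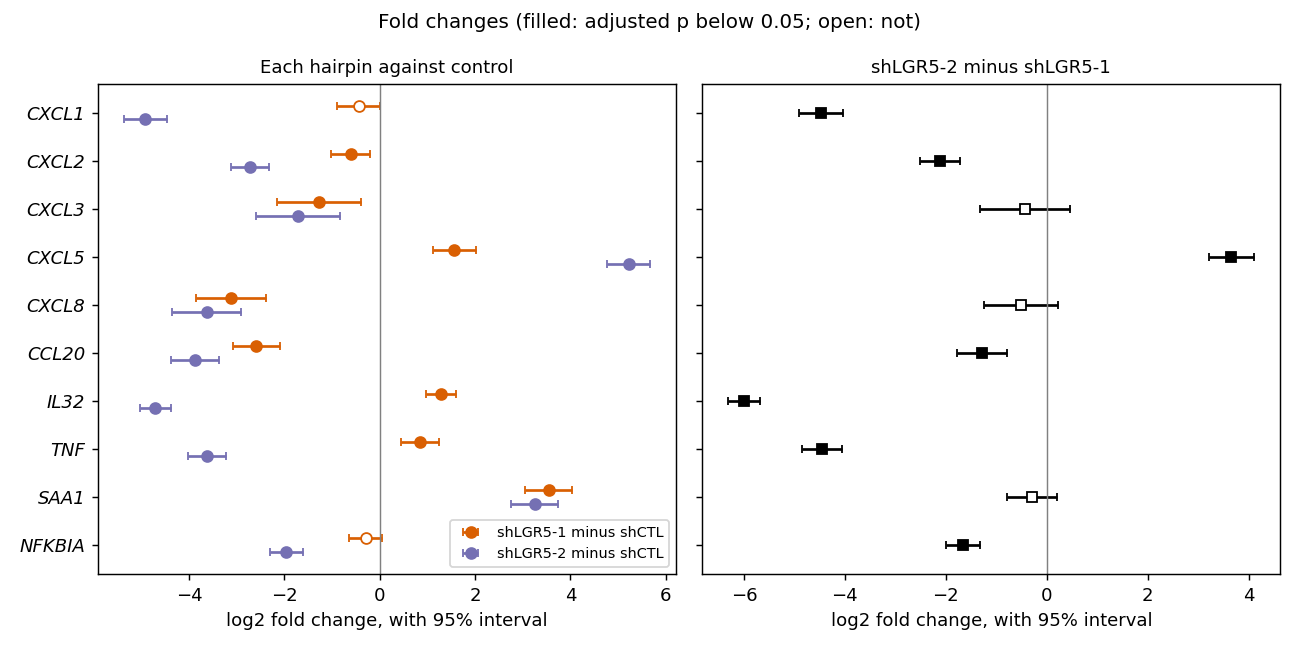
Log2 fold change with its 95% interval on the horizontal axis for each of the 10 genes; the left panel shows shLGR5-1 minus shCTL and shLGR5-2 minus shCTL, the right panel shLGR5-2 minus shLGR5-1, and filled symbols are called at an adjusted p below 0.05. CXCL5 (1.56 and 5.22) and SAA1 (3.55 and 3.25) lie right of 0 for both hairpins, CXCL8 and CCL20 lie left of it, and IL32 (1.28 and -4.70) and TNF lie on both sides; the values of CXCL3 and of TNF in shLGR5-2 are fitted values of a dim group, for which the text gives bounds.

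Genomic span moved with the shLGR5-1 contrasts over all genes, and the 10 genes are short, spanning 1916 to 4128 bases in RefSeq. Across 12101 tested genes with a known span, the Spearman correlation of span with the log2 fold change was -0.327 in shLGR5-1, 0.01 in shLGR5-2 and 0.314 in the direct contrast, where genes are not independent replicates. Genes under 5000 bases had a median log2 fold change of 0.71 in shLGR5-1 (1620 genes), against 0.17 for the other 10481. With this trend removed from each array, TNF in shLGR5-1 was at 0.20 and no longer called (adjusted p = 0.29). With it removed, CXCL1 at -1.11 (adjusted p = 0.00443) and NFKBIA at -0.92 (adjusted p = 0.00357) were called lower in shLGR5-1. CXCL5 at 0.93 and IL32 at 0.69 were still called higher in shLGR5-1, with adjusted p of 0.00741 and 0.00466. The removal left the shLGR5-2 count at 10 of 10. The cause of the trend was not tested.

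The CXC genes of this set lie within 359 kb of chromosome 4 (RefSeq, GRCh38.p14), in a cluster of 9 protein-coding genes, a stretch described after the values were seen. CXCL8, CXCL1, PPBP, CXCL5, CXCL3 and CXCL2 were tested, in that order along the chromosome, and CXCL6, PF4 and PF4V1 did not pass the filter, with no reading above 25.4. PPBP, which encodes a platelet chemokine and is the neighbour of CXCL5, read 112.4 and 152.9 in shLGR5-1 and 25.5 and 33.1 in shLGR5-2, against 121.5 and 97.5 in shCTL. It fell in shLGR5-2 (-1.47 ± 0.20, adjusted p = 0.00427) and was not called in shLGR5-1 (0.24 ± 0.20, adjusted p = 0.328). CXCL5 was the only gene of these 6 to be called higher in either hairpin line. Its neighbours among the tested genes, PPBP and CXCL3, both fell in shLGR5-2.

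**Figure D3:**
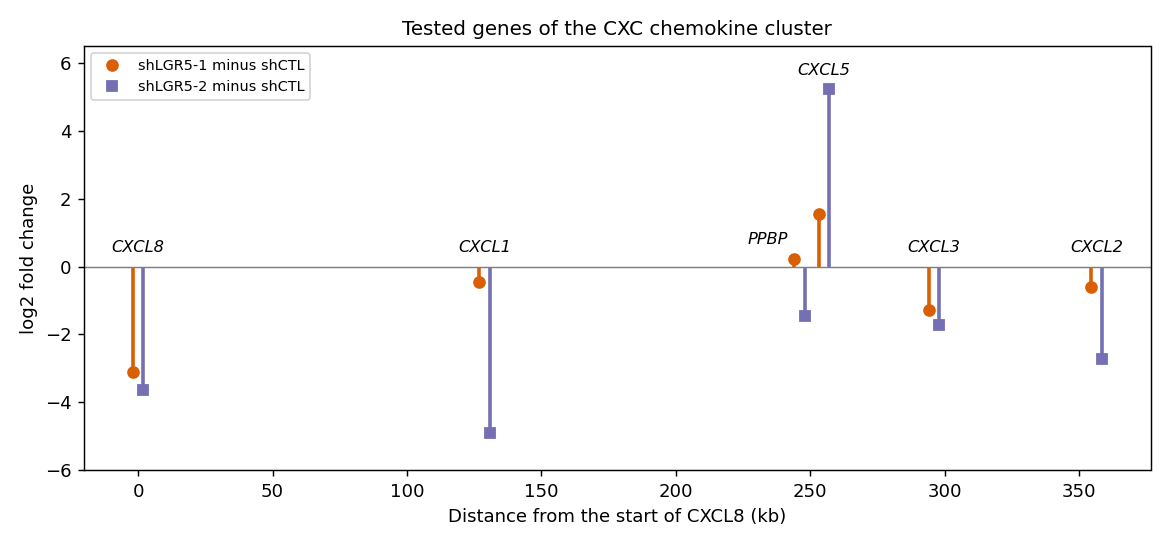
Log2 fold change on the vertical axis of the 6 tested genes of the CXC chemokine cluster against distance from the start of CXCL8 in kb; circles are shLGR5-1 minus shCTL and squares shLGR5-2 minus shCTL, drawn slightly apart for legibility. CXCL5 stands at 5.22 in shLGR5-2, between PPBP at -1.47 and CXCL3, which is dim and shown at its fitted value of -1.71.

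Of 22 other chemokine genes, 6 were bright enough to be tested. In shLGR5-1, 3 were higher and the other 3 were not called, with a median of 1.08, or 1.14 with dim genes at their bounds: CXCL16, a membrane-bound chemokine, rose 2.85-fold (adjusted p = 3.31e-04), CX3CL1, the membrane-bound fractalkine, at least 4.39-fold (adjusted p = 4.48e-04), and CCL5, a T cell attractant, 1.79-fold (adjusted p = 0.00417), a call lost with the span trend removed (0.39, adjusted p = 0.0685). In shLGR5-2, 2 were higher and 1 lower, with a median of -0.08: CX3CL1 rose at least 16.9-fold (adjusted p = 2.12e-04) and CCL25, a gut-homing chemokine, at least 1.89-fold (adjusted p = 0.00399), while PPBP was the 1 that fell. Of all tested genes, 40.4% were called higher and 31.6% lower in shLGR5-1, and 21.6% and 22.6% in shLGR5-2. CCL25 passed the filter through shLGR5-2 alone and CX3CL1 through the hairpin lines alone, so the filter favoured the direction of their calls. Without either shLGR5-2 array, 5 of the 6 were called higher in shLGR5-1, and without shLGR5-2 replicate 2 the shLGR5-2 median was 0.19. CXCL16 was 3.01-fold lower in shLGR5-2 than in shLGR5-1 (adjusted p = 2.16e-04). Of 10 chemokine receptor genes, CCR6, CXCR3 and CXCR4 were tested. CCR6, the receptor for CCL20, had 1 bright probe, at 10041.3 and 10209.2 in shLGR5-1 and 20372.6 and 18972 in shLGR5-2 against 13241 and 13455.7 in shCTL. It was 1.32-fold lower in shLGR5-1 (adjusted p = 0.022) and 1.47-fold higher in shLGR5-2 (adjusted p = 0.0128). The other 2 probes annotated to CCR6 read at most 24.1, so the probes disagree and the gene's level is uncertain. CXCR2, a receptor of the CXC chemokines described here, read at most 21.5 on any array and did not pass the filter. CXCR1 did not pass it either. Its probe read 4.8 and 75.6 in shLGR5-1 and 9.7 and 46.5 in shLGR5-2, against -0.7 and -1.0 in shCTL.

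The genes of the NF-kappaB subunits and inhibitors other than NFKBIA, all 13 of which were tested, were more often called higher than lower in shLGR5-1, while the calls in shLGR5-2 depended on single control arrays. In shLGR5-1, 8 were higher and 1 lower, with a median of 1.02. Of all tested genes, 40.4% were called higher and 31.6% lower there, with a median of 0.28. The subunit gene RELA rose 4.19-fold (adjusted p = 3.36e-04), RELB 3.25-fold (adjusted p = 2.72e-04), the inhibitor gene NFKBIE 3.1-fold (adjusted p = 6.97e-04) and the co-regulator BCL3 4.34-fold (adjusted p = 7.71e-04). REL, named because it was the 1 that fell there, was at least 3.36-fold lower. It passed the filter through shLGR5-2 and shCTL alone, which favoured that call. With the span trend removed, 9 were called higher and 1 lower in shLGR5-1, with a median of 0.63. In shLGR5-2, 1 was higher and 6 lower, with a median of -0.25, against 21.6% higher and 22.6% lower of all tested genes (median 0). Leaving out either shCTL array left 3 lower and 1 higher there, with a median of -0.01 without replicate 1 and -0.45 without replicate 2. RELA was the 1 that rose (1.91-fold, adjusted p = 0.00683), and the feedback genes TNIP1 (3.1-fold, adjusted p = 5.23e-04) and TNFAIP3 (2.14-fold, adjusted p = 0.00313), whose product A20 restrains the pathway, and the subunit gene NFKB2 (2.34-fold, adjusted p = 0.00329) fell. In the direct contrast 11 of 13 were lower in shLGR5-2 and 1 was higher, with a median of -1.36. Of all tested genes, 39.8% were called lower and 33.6% higher there, with a median of -0.19. RELB was 4.35-fold and NFKBIB 4.89-fold lower (adjusted p = 1.17e-04 and 2.14e-04).

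Upstream of these, 24 of 28 listed kinase and adaptor genes were tested. In shLGR5-1, 10 were higher and 8 lower (median 0.29), near the 40.4% higher and 31.6% lower of all tested genes (median 0.28). The adaptor gene MYD88 rose 3.69-fold there (adjusted p = 2.50e-04). BIRC2, a ubiquitin ligase gene, fell 10.4-fold, CHUK, the gene of IKK-alpha, 8.08-fold and RIPK2, a kinase gene of the NOD pathway, 5.22-fold (adjusted p = 2.67e-04, 2.70e-04 and 4.20e-04). In shLGR5-2, 2 were higher and 7 lower (median -0.14), against 21.6% and 22.6% of all tested genes (median 0). Among them, IRAK2, a kinase gene of the interleukin-1 pathway, fell 4.77-fold (adjusted p = 3.06e-04), and MALT1, a paracaspase gene, rose 2.7-fold (adjusted p = 0.0021). The 7 lower became 3 without shCTL replicate 1 and 4 without shCTL replicate 2 or shLGR5-2 replicate 2. Of 19 receptor genes, 14 were tested, with 5 higher and 2 lower in shLGR5-1 (median 0.83) and 3 higher and 5 lower in shLGR5-2 (median -0.57, or -0.63 with dim genes at their bounds). These receptor counts stand against the same shares of all tested genes in each line. The 5 lower in shLGR5-2 became 2 without shCTL replicate 1 and 3 without any other single array of these 2 groups. TNFRSF12A and TNFRSF21, receptors of the TNF receptor family, rose in both lines: 3.25-fold and 2.6-fold in shLGR5-1 (adjusted p = 3.17e-04 and 6.67e-04), and 2.98-fold and 4.2-fold in shLGR5-2 (adjusted p = 7.45e-04 and 4.52e-04). The gene of the main TNF receptor, TNFRSF1A, fell 1.71-fold in shLGR5-2 (adjusted p = 0.00499).

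**Figure D4:**
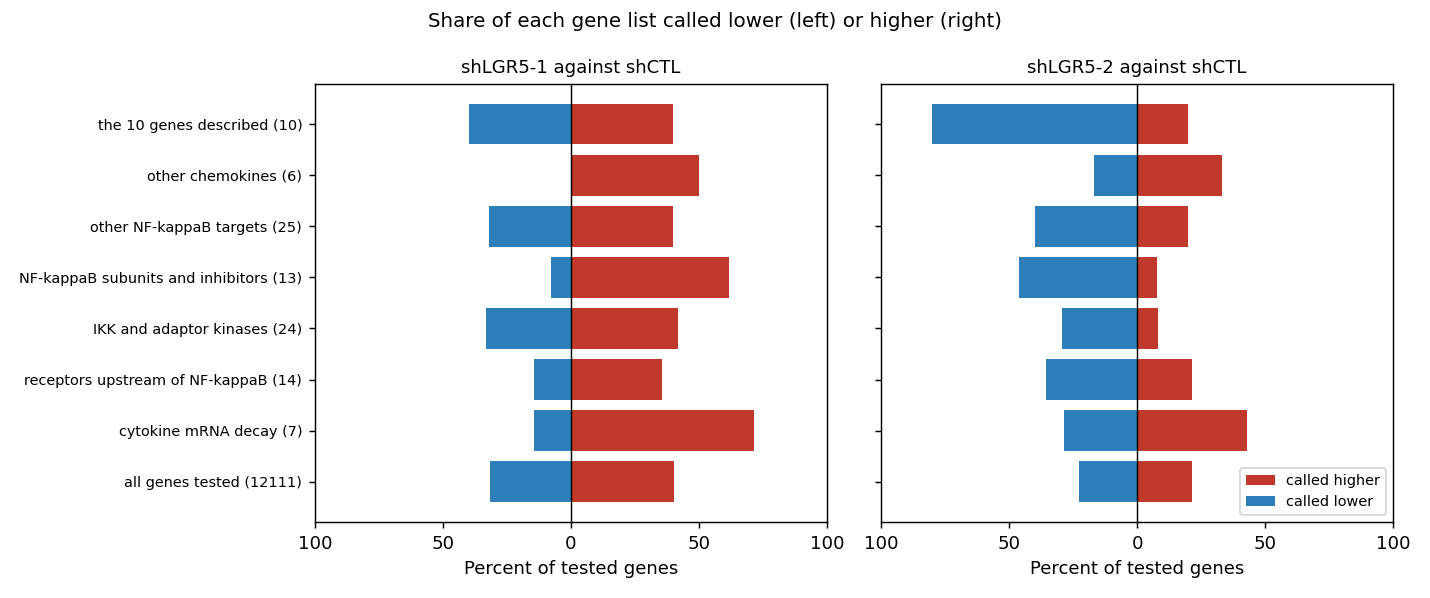
Bars give the percent of the tested genes of each list called lower (left of 0) or higher (right of 0), for shLGR5-1 against shCTL in the left panel and shLGR5-2 against shCTL in the right panel, with the number tested in brackets and all 12111 tested genes in the bottom bar. The 10 genes described have 4 lower and 4 higher in shLGR5-1, and 8 lower and 2 higher in shLGR5-2.

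Among 39 other genes listed as NF-kappaB targets, 25 were tested. In shLGR5-1, 10 were higher and 8 lower (median 0.32), or 7 and 10 with the span trend removed (median 0.06), and in shLGR5-2, 5 were higher and 10 lower (median -0.15). Of all tested genes, 40.4% were called higher and 31.6% lower in shLGR5-1, which is near these counts, and 21.6% and 22.6% in shLGR5-2. SAA2, SAA4 and C3, called higher in shLGR5-1, passed the filter through shLGR5-1 alone. LIF, higher in both lines, passed through these lines alone, so the filter favoured the direction of these calls. Of the 14 targets above the threshold on every array, 6 were higher and 5 lower in shLGR5-1 (median 0.27). Without shCTL replicate 1 the 10 higher in shLGR5-1 became 6, and the 5 higher in shLGR5-2 became 1 or 2 when any single array of shLGR5-2 or shCTL was left out. PTGS2, the gene of cyclooxygenase-2, fell in both lines, 31.8-fold in shLGR5-1 (adjusted p = 2.07e-04) and 21.5-fold in shLGR5-2 (adjusted p = 4.41e-04). The interleukin-1 genes IL1A and IL1B were above the threshold in shCTL alone, which is how they passed the filter. IL1A was at least 2.5-fold and IL1B at least 6.73-fold lower in each hairpin line. NFKBIZ, the gene of a nuclear co-regulator, fell 3.67-fold in shLGR5-1 (adjusted p = 2.52e-04) and 2.41-fold in shLGR5-2 (adjusted p = 0.00135). PIGR, which carries IgA across the epithelium, fell 1.78-fold in shLGR5-1 (adjusted p = 0.00515) and was at least 29.6-fold lower in shLGR5-2 (adjusted p = 6.49e-05). PIGR passed the filter through shLGR5-1 and shCTL alone, which favoured its lower call in shLGR5-2. LCN2, an iron-sequestering defence protein, fell 1.98-fold in shLGR5-1 (adjusted p = 0.0013) and 3.68-fold in shLGR5-2 (adjusted p = 4.41e-04). LTB, the gene of lymphotoxin-beta, fell 4.77-fold in shLGR5-2 (adjusted p = 3.00e-04) and was not called in shLGR5-1 (0.22, adjusted p = 0.155). Other targets of this list rose. PLAU and CD83, above the threshold in all groups, rose 3.58-fold and 2.22-fold in shLGR5-1 (adjusted p = 0.00119 and 0.00116). In shLGR5-2 they rose 2.23-fold and 1.39-fold (adjusted p = 0.0107 and 0.0382). Genes that control the decay of cytokine mRNAs were tested for 7 of 8. Regnase-1, encoded by ZC3H12A, rose 2.25-fold in shLGR5-1 (adjusted p = 0.00102) and fell 3.3-fold in shLGR5-2 (adjusted p = 7.29e-04), and the decay factor genes KHSRP and ZFP36 rose in both lines by 2.05-fold to 2.33-fold. With the span trend removed, ZFP36 was at 0.41 in shLGR5-1 and not called (adjusted p = 0.109), and 2 of the 7 decay genes were called higher there in place of 5. Of 15 tested interferon response genes, 4 were higher and 6 lower in shLGR5-1 and 3 higher and 7 lower in shLGR5-2 (medians -0.09 and -1.14). Leaving out either shCTL array left 1 lower in shLGR5-1 and 3 lower in shLGR5-2, and with no offset and a floor of 1 there were 1 and 4. Of the 6 interferon genes above the threshold on every array, 3 were higher and none lower in shLGR5-1, and 3 were higher and 2 lower in shLGR5-2 (medians 0.64 and 0.59), so no direction is given for this list. MX1, an antiviral GTPase gene, fell 23.2-fold in shLGR5-2 (adjusted p = 8.96e-05), where IFI6 rose 3.04-fold (adjusted p = 7.86e-04).

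Some leukocyte and epithelial markers also differed between the lines, while no fibroblast marker was called against shCTL and no endothelial marker was tested. The summed intensity of the 9 leukocyte markers was 1381.5 and 1523.8 in shLGR5-1 and 342.1 and 348.5 in shLGR5-2, against 1158.3 and 1227.4 in shCTL. The brightest in shLGR5-1 and shCTL was CD68, a lysosomal protein that is not confined to leukocytes, at 1193.3 and 1322.4 in shLGR5-1 and 145.5 and 139.5 in shLGR5-2, against 1103.3 and 1148.3 in shCTL. CD14, a receptor for bacterial lipopolysaccharide, read 73.4 and 144.5 in shLGR5-1 and 122.4 and 147.6 in shLGR5-2, against 11.5 and 25 in shCTL. The sums of the 8 fibroblast markers were at most 100.1 and those of the 6 endothelial markers at most 99.6 on any array. The 10 epithelial markers summed to 50540.4 and 50207.5 in shLGR5-1 and 55534.1 and 55372.6 in shLGR5-2, against 38400.9 and 38707.2 in shCTL. That sum is carried by a few bright probes, and single epithelial markers went both ways: 7 were called higher and 2 lower in shLGR5-1, and 5 higher and 3 lower in shLGR5-2. Of all tested genes, 40.4% were called higher and 31.6% lower in shLGR5-1, and 21.6% and 22.6% in shLGR5-2. EPCAM and CDH1 were the 2 that fell in shLGR5-1, by 1.49-fold and 1.44-fold. Among the 7 called higher there, KRT18 rose 2.29-fold, KRT8 and VIL1 2-fold, KRT19 1.97-fold and CDX2 1.86-fold. KRT19, KRT18 and KRT8 also rose in shLGR5-2, by 1.6-fold, 1.54-fold and 1.48-fold. In shLGR5-2 VIL1 was at least 3.25-fold lower, CLDN4 and CLDN3 fell 2.68-fold and 2.42-fold, and CDH1 rose 2.78-fold. VIL1 and CLDN4 passed the filter through shLGR5-1 and shCTL alone, which favoured their lower calls in shLGR5-2. With the span trend removed, CDH1 in shLGR5-1 was at 0.11 and not called (adjusted p = 0.43). CLDN4 and CLDN7 then lost their higher calls there, and CLDN3 became called lower (-0.69, adjusted p = 0.0062). Leaving out any single array of shLGR5-2 or shCTL left 2 or 3 of the 5 higher in shLGR5-2. The part of these shifts in the chemokine results was not tested.

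The shapes of the 10 genes over the 6 arrays were compared by the root mean square difference of their log2 values, each centred on its own mean. CXCL2 and NFKBIA were closest among the 10, at 0.35, as were CXCL8 and CCL20, also at 0.35, and every other pair differed by 0.62 or more. Outside the set, the genes most like CXCL8 among the 12111 tested were RADX at 0.10, FERMT2 at 0.16 and HPGD, which encodes a prostaglandin-degrading enzyme, at 0.18. The nearest to CCL20 were DDIT4L and PBDC1 at 0.20 and GCA at 0.23, and to SAA1 they were ALG1L1P at 0.28, RARRES2, which encodes the chemoattractant chemerin, at 0.30 and the tight junction gene CLDN2 at 0.31. The nearest to NFKBIA were NOP53 at 0.06, GPHN at 0.10 and RPS27L at 0.11. RARRES2 read 164.4 and 104.4 in shLGR5-1 and 139.2 and 168.1 in shLGR5-2, against -6.8 and -7.9 in shCTL, where it was not above the threshold. RADX and FERMT2 were not above the threshold on at least 3 of the 4 hairpin arrays, nor DDIT4L and PBDC1 on either shLGR5-2 array, nor CLDN2 on either shCTL array, so their likeness there is partly set by the floor and the offset and their order is not firm. These likenesses rest on 6 arrays in 3 lines and say nothing of shared control.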

How the data were processed

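RNA from 6 LoVo samples was measured on Illumina bead arrays. The deposited table gives an intensity on a linear scale for each of 47323 probes on every array. Per the submitters' processing notes the software was GenomeStudio, without a version. That the authors had subtracted background and quantile-normalized these intensity values can be read from them: 30.5% are negative, and equal ranks differ between arrays by 0.7 at most. The way the background was estimated is not stated in the notes. Precision is limited by the 2 arrays per group. Another 12 value columns, whose names could be tied to no sample, stayed unused. No batch could be tested, since neither labels nor files name slides or scans.

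Values below 0 were set to 0, 16 was added and log2 taken, which understates the change of dim genes. The negative values have a root mean square of 10, taken as the noise SD, and its 0.95 normal quantile, 16.5, was the threshold. The 21792 probes above it on both arrays of at least 1 group were kept. Probe names came from the platform annotation, updated through a RefSeq gene table (GRCh38.p14), with 1 gene for 30113 probes, several for 8 and none for 17202. The 16269 kept probes with 1 gene gave 12111 genes, each represented by its brightest probe on average; for 3274 genes there was a choice. The genome build of the array is not stated, so spans, the chromosome 4 cluster and promoters are RefSeq's and not probe positions.

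A limma model (version 3.58.1, R 4.3.3; lmFit, then eBayes) was fitted to the 6 arrays with the group means as terms, leaving 3 residual and adding 2.01 prior degrees of freedom. Two-sided p-values were adjusted over 12111 genes (Benjamini-Hochberg), with calls at 0.05. Where both arrays of a group were at or under the threshold, the fold is a bound, written "at least", from mean log2 intensities with no offset and dim values raised to the threshold; the adjusted p beside it comes from the fit. The fit was also run on simulated arrays with independent noise, in which few genes were changed, in a single group. The arrays here differ from that setting, so the simulation does not bear on the calls given. No 2 arrays held the same values. Same-numbered replicates did not deviate together (correlations of replicate differences 0.001 to 0.016), so the numbers were not used as pairs.

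Genes named are the 10 described with all their probes, LGR5, for each list and contrast up to 4 genes of lowest adjusted p, and the 3 genes nearest in profile to CXCL8, CCL20, SAA1 and NFKBIA. The 10 genes and all gene lists were chosen with earlier results of these data known. The chromosome 4 stretch, its gene PPBP, the promoter motifs and the epithelial markers with values were added after their values were seen. So were REL, SAA4, C3, LIF, PLAU, CD83, CD68, CD14 and the probes of PTPRC, CD3E, CD3D, MS4A1, ITGAM, NKG7, CXCR1, CXCR2 and SAA2. Alternatives covered the offset, the filter on dim probes, the probe per gene, the spread estimate, the samples in the fit, the replicate block, genomic span and each array left out.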

Additional observations from a re-analysis of the deposited data

Results flagged for a closer look

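The hairpin lines differed from each other for 7 of the 10 genes, by the direct limma contrast of shLGR5-2 with shLGR5-1, which is the test of whether their changes against the shared control differ. The log2 difference, shLGR5-2 minus shLGR5-1, was -5.99 for IL32, -4.47 for CXCL1, -4.46 for TNF (a fitted value, TNF being dim in shLGR5-2), -2.11 for CXCL2, -1.66 for NFKBIA, -1.29 for CCL20 and 3.66 for CXCL5. For IL32 and TNF the lines lay on opposite sides of shCTL, though the rise of TNF in shLGR5-1 was not called with the genomic span trend removed. For CXCL2, CCL20 and CXCL5 both lines moved the same way and shLGR5-2 moved further. For CXCL1 and NFKBIA the shLGR5-1 change was not called. Of all 12111 tested genes, 73.4% were called in this contrast. Groups of 2 arrays were too small to look for single arrays that stand apart.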

How the results depend on the processing

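The summed calls among the 10 genes stayed within 1.5 times the reported ones in every alternative run: 6 to 10 for shLGR5-1, where 8 are reported, 7 to 10 for shLGR5-2, where 10 are, and 6 to 8 for the direct contrast, where 7 are. With the genomic span trend removed, the shLGR5-1 calls were 3 higher and 6 lower, in place of 4 and 4. Split by direction those calls moved more, between 2 and 4 higher and between 2 and 6 lower. Counts for the longer gene lists also moved more, the interferon genes lower in shLGR5-1 between 0 and 7, where 6 are reported. The strict filter, above the threshold on all arrays, left 7 of the 10 genes to test, without CXCL3, TNF and SAA1. With the replicate block the counts were 8, 10 and 7, and the block changed no call among the 10 genes. Of 471 recomputed fold changes, 441 kept direction and call, 16 lost the call, 10 gained it and 4 changed sign. The sign changes were all in the direct contrast and among values not called. With the same removal, CXCL3 was at 0.27, CXCL8 at 0.14 and SAA1 at 0.33. With single arrays left out, CXCL3 ranged between -0.94 and 0.07. CXCL1 in shLGR5-1 became called in 5 alternatives (adjusted p 0.00443 to 0.0397) and NFKBIA in 3 (0.00357 to 0.0477), both among them without shLGR5-1 replicate 2. CXCL3 lost its call in 7 of 15 alternatives for shLGR5-1 (adjusted p up to 0.11) and in 6 of 15 for shLGR5-2 (up to 0.0907). The fitted log2 value of TNF in shLGR5-2 ranged between -7.5 and -2.21 and stayed called. With no filter on dim probes, 20039 genes were tested, and 40.9%, 23.4% and 41.9% of them were called for shLGR5-1, shLGR5-2 and the direct contrast. Without shCTL replicate 1 or 2, shLGR5-2 calls over all genes fell to 3177 and 3250, against 5357 with both. The cause of these changes was not tested. Probes near the threshold, those of CXCL3 and the control arrays of SAA1, limit what can be measured.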
